A study of Mus musculus with 12 samples.

Results

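The interneuron markers described here are 10 genes chosen by symbol: Gad1, Gad2, Slc32a1, Dlx1, Dlx2, Lhx6, Sst, Npy, Vip and Pvalb. All 10 were found among the 52636 genes of both deposited count tables. The rule that chose them uses no measured value, but they were chosen with earlier results of these data known. Inhibitory interneurons of the dentate gyrus release GABA onto granule cells and mossy cells, and they are commonly divided by the peptide or calcium-binding protein they carry. Gad1 and Gad2 encode the enzymes that make GABA, and Slc32a1 encodes the transporter that loads it into vesicles. Dlx1, Dlx2 and Lhx6 are transcription factors of the ventral forebrain from which these cells arise, while Sst, Npy, Vip and Pvalb mark subtypes.

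Bulk RNA sequencing of the dentate gyrus, on total RNA of C57BL/6 mice, gave 12 libraries. There were 4 groups of 3: a knockout (KO) and its wild type (WT), and a pair given AAV9 vectors. In the title of the study the knockout is of Fst, the gene for follistatin, a secreted protein that binds activin. The Fst vector group carried AAV9-CB::Fst and is labelled OE, with no genotype stated, and the GFP vector group was KO mice that carried AAV9-CB::GFP. The labels do not say in which cells the knockout or the vectors act, how old the mice were or what CB stands for. Libraries are named by the sex letter and number in their titles (M1, F1 and M2 in KO and WT, and M1, M2 and F in the vector groups). For F1 and M2 of both KO and WT, the sex in the description differs from that in the title. Xist, which female cells express, stood at 1520 CPM in KO F1 and 1785 CPM in WT F1, and at 0.406 CPM in KO M2 and 0.265 CPM in WT M2, which goes with the titles. It is unclear whether a library pools several mice, so p-values measure only the spread between these libraries, which may be technical.

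Libraries held 8081824 to 11331337 counts, and values are counts scaled to these totals (CPM). A count of 3 equals 0.265 to 0.371 CPM, and such floors cover counting error only. Fst had 2, 4 and 2 counts in KO M1, F1 and M2, against 34, 33 and 51 in WT M1, F1 and M2. It had 2078, 1870 and 1497 counts in Fst vector M1, M2 and F, against 0, 1 and 0 in GFP vector M1, M2 and F. Ribosomal RNA made up 0.575 to 0.679% of counts in KO M2, WT F1, Fst M2, Fst F and GFP M2, and 0.00919 to 0.0211% in the other 7 libraries. Markers of mature granule cells summed to 1928 to 2056 CPM in KO, 1929 to 2039 CPM in WT, 1714 to 1959 CPM in the Fst vector group and 1443 to 2133 CPM in the GFP vector group. In the vector table, the summed level of 13 activity-induced secreted factors and immediate-early genes was 1041, 1040 and 1951 CPM in Fst M1, M2 and F, against 707.8, 1256 and 2425 CPM in GFP M1, M2 and F. Fst F, GFP M2 and GFP F therefore stood above the other 3 vector libraries in this sum. Its genes did not all follow. Penk had 58.5, 52.6 and 518.5 CPM with the Fst vector against 22.4, 252.4 and 478.6 CPM with the GFP vector, in the same library order. The immediate-early gene Junb had 90.2, 63.8 and 48.2 CPM with the Fst vector against 68.2, 54.0 and 45.5 CPM with the GFP vector.

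The peptide genes are shown by their upstream sequence because cyclic AMP response elements upstream of Sst and Vip are textbook examples of regulated peptide transcription. The 250 bases before each RefSeq start are given 5′ to 3′ on the gene's own strand (RefSeq sequences, GRCm38.p6), at chr16:23890845-23891094 on the minus strand for Sst, chr6:49822460-49822709 on the plus strand for Npy and chr10:5638968-5639217 on the plus strand for Vip. Capitals mark the full element TGACGTCA or, where it is absent, its core TGACG.
Sst: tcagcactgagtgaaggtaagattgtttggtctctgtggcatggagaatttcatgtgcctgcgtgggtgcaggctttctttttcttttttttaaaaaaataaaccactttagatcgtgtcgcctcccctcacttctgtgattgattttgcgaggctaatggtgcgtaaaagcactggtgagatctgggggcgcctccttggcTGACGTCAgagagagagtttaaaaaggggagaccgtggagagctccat
Npy: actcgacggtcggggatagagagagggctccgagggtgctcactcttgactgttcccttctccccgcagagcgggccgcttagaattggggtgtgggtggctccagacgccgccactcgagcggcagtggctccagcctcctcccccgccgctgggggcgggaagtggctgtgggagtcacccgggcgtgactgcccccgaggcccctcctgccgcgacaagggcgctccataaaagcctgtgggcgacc
Vip: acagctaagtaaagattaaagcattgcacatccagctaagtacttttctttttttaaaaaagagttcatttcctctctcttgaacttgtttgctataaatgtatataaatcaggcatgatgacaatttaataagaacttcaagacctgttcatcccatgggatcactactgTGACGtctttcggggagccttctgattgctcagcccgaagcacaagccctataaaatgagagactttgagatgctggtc
Both strands were searched, and TGACGTCA holds the core on each strand. The full element lay at -48 to -41 in Sst, counted from the start, and the core at -79 to -75 in Vip. No match was found in the window of Npy. Over the 10 interneuron markers the core was in the windows of 4 (Gad2, Dlx2, Sst and Vip), and it was in 17.8% of 32851 promoter windows of the same length. The full element was in 1 of 10, against 1.55% of those windows. A match in these letters is a description and not a binding site.

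**Figure D1:**
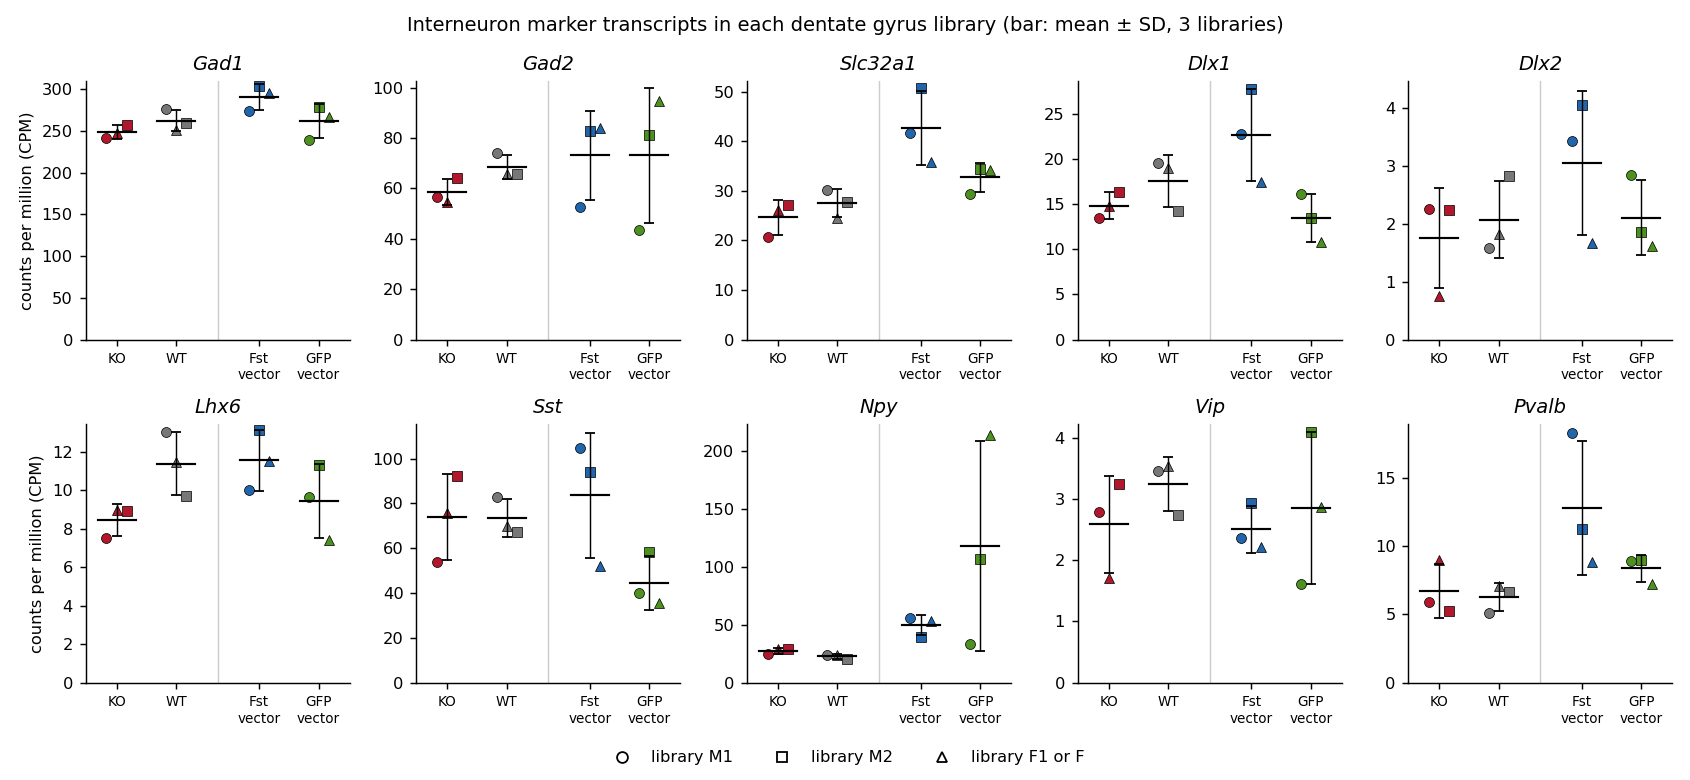
CPM of each interneuron marker in every library, in the order KO, WT, Fst vector and GFP vector. Circles are M1, squares M2 and triangles F1 or F, and the bar is the mean ± SD of 3 libraries. Npy spans 33.5 to 213.6 CPM in the GFP vector group, and Gad1 stays within 239.2 to 303.6 CPM in all 12 libraries.

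Per kilobase of exon, the scale on which levels of different genes were compared, the peptide genes Sst and Npy had the highest group means when all exons were counted. In KO, Sst averaged 102.4 ± 26.7, Npy 48.8 ± 4.26 and Gad1 32.6 ± 1.06 CPM per kilobase (SD, n = 3), and these 3 ranges lay apart. In WT the same order held at 101.8 ± 11.8, 40.3 ± 4.15 and 34.4 ± 1.65 CPM per kilobase, but the ranges of Npy and Gad1 overlapped. Gad2, Slc32a1, Pvalb, Dlx1, Lhx6, Vip and Dlx2 followed in that order in KO and WT. Vip and Dlx2, at 0.760 and 0.612 CPM per kilobase in KO, overlapped in all 4 groups. In the GFP vector group Npy came first at 208.2 ± 160.0 CPM per kilobase, above Sst at 61.9 ± 16.6, although their ranges overlapped. With the longest transcript in place of all exons, Gad1 ranked 2 in KO, WT and the GFP vector group, with Npy at 3 in KO and WT and Sst at 3 in the GFP vector group. In the Fst vector group Pvalb then ranked 5 and Gad2 6.

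**Figure D2:**
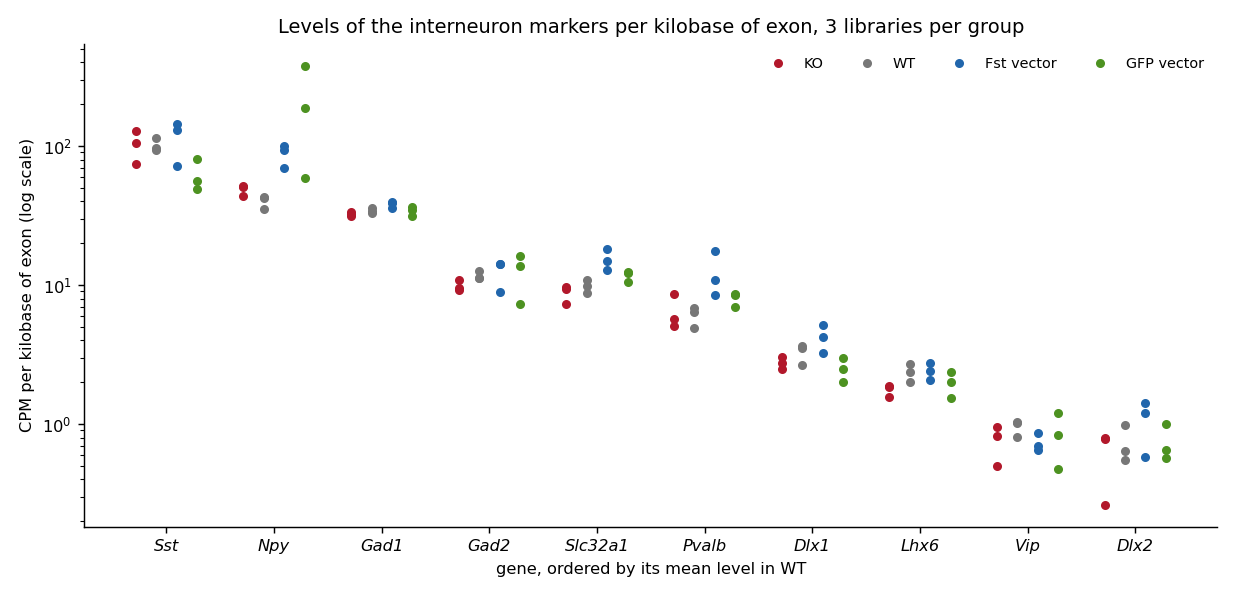
Level of each interneuron marker in CPM per kilobase of exon on a log axis, 1 point per library, with genes ordered by their WT mean. Sst and Npy lie at the top and Vip and Dlx2 at the bottom in each group.

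None of the 10 interneuron markers passed an adjusted p of 0.05 between KO and WT (edgeR's quasi-likelihood test with Benjamini-Hochberg adjustment over 14919 genes), nor did any with DESeq2. Of all genes tested, 0.0268% were called. At an unadjusted p under 0.05, 1 was higher and 2 were lower in KO, where 5.96% of all genes passed. The same 3 genes, Npy, Gad2 and Lhx6, had groups that did not overlap in CPM, against 11.0% of all genes. For each, the nearest KO and WT libraries differed by less than the counting error of a single library at the mean count. That error was 6.17 to 6.62% for Npy, 3.82 to 4.24% for Gad2 and 9.38 to 11.1% for Lhx6. The median log2 change of the interneuron markers was -0.18, and that of all genes was -0.00; 7 of 10 were negative. In bulk tissue, fewer cells of a type and less RNA per cell cannot be told apart.

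Gad1 (ENSMUSG00000070880, GRCm38 chr2:70553072-70602014, plus strand) had 241.5, 247.2 and 257.4 CPM in KO M1, F1 and M2, against 276.0, 251.1 and 260.1 CPM in WT M1, F1 and M2. These ranges overlapped, and the log2 change was -0.06 ± 0.06 (SE). Gad2 (ENSMUSG00000026787, chr2:22622205-22693874, plus strand) had 56.4, 54.6 and 64.2 CPM in KO against 73.9, 65.8 and 65.6 CPM in WT, in the same library order. All 3 KO libraries lay below all 3 WT libraries for Gad2, and its log2 change of -0.21 ± 0.08 had an edgeR adjusted p of 0.736. Among libraries high in ribosomal RNA it stood at 64.2 CPM in KO and 65.8 CPM in WT, and among the others at 54.6 to 56.4 CPM in KO and 65.6 to 73.9 CPM in WT. Slc32a1 (ENSMUSG00000037771, chr2:158610767-158615748, plus strand) had 20.6, 26.1 and 27.1 CPM in KO against 30.2, 24.6 and 27.7 CPM in WT, and the groups overlapped.

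Among the transcription factors, Lhx6, which specifies somatostatin and parvalbumin cells (ENSMUSG00000026890, chr2:36081953-36105408, minus strand), had 7.52, 8.99 and 8.94 CPM in KO against 13.02, 11.5 and 9.71 CPM in WT. Every KO library was below every WT library, with a log2 change of -0.40 ± 0.16 and an edgeR adjusted p of 0.751. It stood at 8.94 CPM in KO and 11.5 CPM in WT among the libraries high in ribosomal RNA, and at 7.52 to 8.99 CPM in KO and 9.71 to 13.02 CPM in WT among the others. Dlx1 (ENSMUSG00000041911, chr2:71528113-71533981, plus strand) had 13.4, 14.8 and 16.4 CPM in KO against 19.5, 19.0 and 14.3 CPM in WT, and WT M2 lay inside the KO range. Dlx2 (ENSMUSG00000023391, chr2:71543408-71546754, minus strand), its neighbour, had 21, 7 and 22 counts in KO against 15, 17 and 32 in WT. At the mean count per library, the counting error of a single library's Dlx2 level was 24.5% in KO and 21.7% in WT. How the counting treated strand is not stated, so overlapping genes may share reads. Dlx1as on the opposite strand covers 6.21% of the Dlx1 exons at 1.47 to 5.90 CPM of its own. Gm14205 covers 24.9% of the Slc32a1 exons on the opposite strand and was at 0 in all libraries.

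Of the subtype genes, Npy, which encodes neuropeptide Y (ENSMUSG00000029819, chr6:49822710-49829507, plus strand), had 24.8, 29.0 and 28.9 CPM in KO against 24.3, 24.1 and 20.1 CPM in WT. The KO libraries were all above the WT libraries, and the log2 change was 0.29 ± 0.11 with an edgeR adjusted p of 0.694. KO M1 and WT M1 each had 231 Npy counts, so their order rests on the library totals. Npy stood at 28.9 CPM in KO and 24.1 CPM in WT among the libraries high in ribosomal RNA, and at 24.8 to 29.0 CPM in KO and 20.1 to 24.3 CPM in WT among the others. Sst, which encodes somatostatin (ENSMUSG00000004366, chr16:23889573-23890958, minus strand), had 53.7, 75.7 and 92.1 CPM in KO against 83.0, 69.9 and 67.2 CPM in WT. Its mean was 73.8 ± 19.3 CPM in KO and 73.4 ± 8.47 CPM in WT (SD, n = 3 each), and the KO libraries lay on both sides of WT. Pvalb, the calcium-binding protein of fast-spiking cells (ENSMUSG00000005716, chr15:78191114-78206400, minus strand), had 5.91, 8.99 and 5.28 CPM in KO against 5.14, 7.08 and 6.62 CPM in WT. Vip, for vasoactive intestinal peptide (ENSMUSG00000019772, chr10:5639218-5647617, plus strand), averaged 2.58 ± 0.789 CPM in KO and 3.25 ± 0.444 CPM in WT. Both overlapped between the groups, and Vip rested on 74 counts in KO and 97 in WT.

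Summed markers of 3 of 17 cell type and state lists lay apart between the groups. Newborn neuron markers summed to 120.8 to 122.8 CPM in KO against 135.2 to 139.4 CPM in WT, with 1 of 6 tested genes positive. Cajal-Retzius markers summed to 98.9 to 106.8 CPM in KO against 130.2 to 139.2 CPM in WT, with 0 of 6 positive. Hypothalamus and septum markers summed to 8.59 to 9.45 CPM in KO against 10.6 to 12.4 CPM in WT, but only Zic1 of the 7 genes was tested, with a negative change, and Lhx8 was at 0 in all libraries. Zic1 alone, named after its values were seen, stood at 7.63, 7.60 and 8.84 CPM in KO M1, F1 and M2, against 10.1, 11.2 and 11.5 CPM in WT M1, F1 and M2. The other 14 sums overlapped, and no gene of any list was called by edgeR. The part of these lists in the values of Gad2, Lhx6 and Npy was not tested.

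In the vector groups no interneuron marker passed the adjusted threshold with edgeR or with DESeq2, where edgeR called 0.0798% of 15034 genes. At an unadjusted p under 0.05, 2 were higher and 0 lower in the Fst vector group (Dlx1 and Sst), against 9.51% of all genes. Slc32a1 and Dlx1 had groups that did not overlap, both higher, against 16.5% of all genes in either direction and 10.5% in the higher direction. Their nearest libraries stood at 35.8 against 34.5 CPM for Slc32a1 and 17.5 against 16.1 CPM for Dlx1. The counting error of a single library was 4.9 to 5.62% for Slc32a1 and 6.72 to 8.87% for Dlx1. The median log2 change of the 10 genes was 0.30, with 7 positive, and that of all genes was 0.01. These changes depend on which libraries enter. Without GFP M2, GFP F and Fst F, the libraries with the highest activity-induced sums and a choice made after seeing the data, 1 GFP vector library remained against 2 Fst vector libraries, and Sst was called at a log2 change of 1.25 ± 0.30 (edgeR adjusted p = 0.00399). The same fit turned the signs of Npy to 0.46, Gad2 to 0.59 and Vip to 0.66. The GFP vector library kept, GFP M1, was the lowest vector library for Npy, Gad2 and Vip (33.5, 43.3 and 1.61 CPM). With GFP M2, GFP F or Fst F left out alone, Npy stayed at -1.36, -0.53 and -1.33. Gad2 was then at 0.03, 0.19 and -0.15, and Vip at 0.10, -0.24 and -0.15. The cause of the turned signs was not tested. The fit assumes that the lone GFP vector library varies like the Fst vector libraries.

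**Figure D3:**
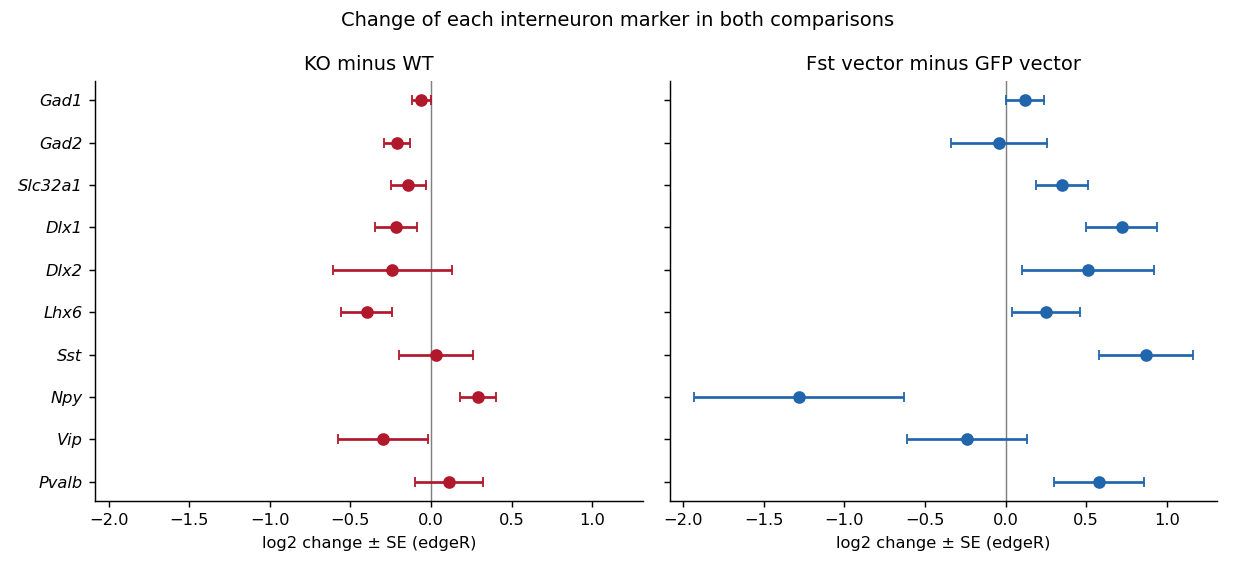
Log2 change ± SE of each interneuron marker from edgeR, KO minus WT on the left and Fst vector minus GFP vector on the right, 6 libraries per comparison. The Npy estimate in the vector comparison, -1.28 ± 0.65, has the widest error.

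Sst had 104.5, 94.2 and 51.9 CPM in Fst vector M1, M2 and F, against 40.2, 58.1 and 35.5 CPM in GFP vector M1, M2 and F. Fst F lay inside the GFP vector range, and the other Fst vector libraries lay above it. The log2 change was 0.87 ± 0.29 (edgeR adjusted p = 0.413, and 0.201 to 0.803 with 1 library left out). Among libraries high in ribosomal RNA, Sst stood at 94.2 and 51.9 CPM with the Fst vector and 58.1 CPM with the GFP vector, and among the others at 104.5 CPM with the Fst vector and 35.5 to 40.2 CPM with the GFP vector. With the replicate name as a block, the change was 0.84 ± 0.17 (edgeR adjusted p = 0.0762). That pairing was inferred from these same data and is stated by no label. The M2 libraries reached r = 0.137, against 0.120 for Fst M2 with GFP M1.

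Dlx1 had 22.8, 27.8 and 17.5 CPM in Fst vector M1, M2 and F, against 16.1, 13.4 and 10.8 CPM in the GFP vector libraries. All Fst vector libraries were above all GFP vector libraries. The log2 change was 0.72 ± 0.22 (edgeR adjusted p = 0.347, and 0.198 to 0.793 with 1 library left out). Among libraries high in ribosomal RNA its levels were 17.5 to 27.8 CPM with the Fst vector and 13.4 CPM with the GFP vector, and among the others 22.8 CPM with the Fst vector and 10.8 to 16.1 CPM with the GFP vector. Slc32a1 had 41.7, 50.6 and 35.8 CPM in the Fst vector libraries, against 29.3, 34.5 and 34.3 CPM in the GFP vector libraries. The groups did not overlap, and the log2 change was 0.35 ± 0.16 (edgeR adjusted p = 0.532). Within the libraries high in ribosomal RNA Slc32a1 stood at 35.8 to 50.6 CPM with the Fst vector and 34.5 CPM with the GFP vector, and in the others at 41.7 CPM with the Fst vector and 29.3 to 34.3 CPM with the GFP vector.

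Npy had 56.3, 39.7 and 53.0 CPM in Fst vector M1, M2 and F, against 33.5, 106.5 and 213.6 CPM in GFP vector M1, M2 and F. The GFP vector libraries lay on both sides of the Fst vector libraries, and GFP F alone reached 213.6 CPM. The log2 change of -1.28 ± 0.65 was not called (edgeR adjusted p = 0.633), and it was -0.53 ± 0.48 without GFP F and -1.72 ± 0.30 without GFP M1. Bdnf, an activity-induced growth factor, stood at 75.6, 76.2 and 192.4 CPM in Fst vector M1, M2 and F, against 73.4, 125.3 and 207.9 CPM in the GFP vector libraries. Nptx2, an activity-induced synaptic protein, stood at 26.7, 16.5 and 130.5 CPM with the Fst vector against 24.9, 70.4 and 222.9 CPM with the GFP vector. Fst F, GFP M2 and GFP F were the highest libraries of the vector table for both genes. Among other genes of the same list, Penk and Inhba were also highest there, but the immediate-early genes Fos and Junb were lowest there. Fos stood at 5.60, 6.38 and 2.21 CPM with the Fst vector against 5.82, 1.85 and 4.96 CPM with the GFP vector. The astrocyte marker Gfap was 612.8, 620.0 and 1033 CPM in the Fst vector libraries and 566.3, 1555 and 4864 CPM in the GFP vector libraries. The other astrocyte markers were mixed. Aqp4 and Aldh1l1 were also highest in GFP F, at 364.2 and 57.2 CPM, but Slc1a3 was lowest there, at 462.2 CPM. Gjb6 stood at 48.3 CPM in GFP F, below its 55.4 to 56.6 CPM with the Fst vector. The part of these genes in the level of Npy was not tested.

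**Figure D4:**
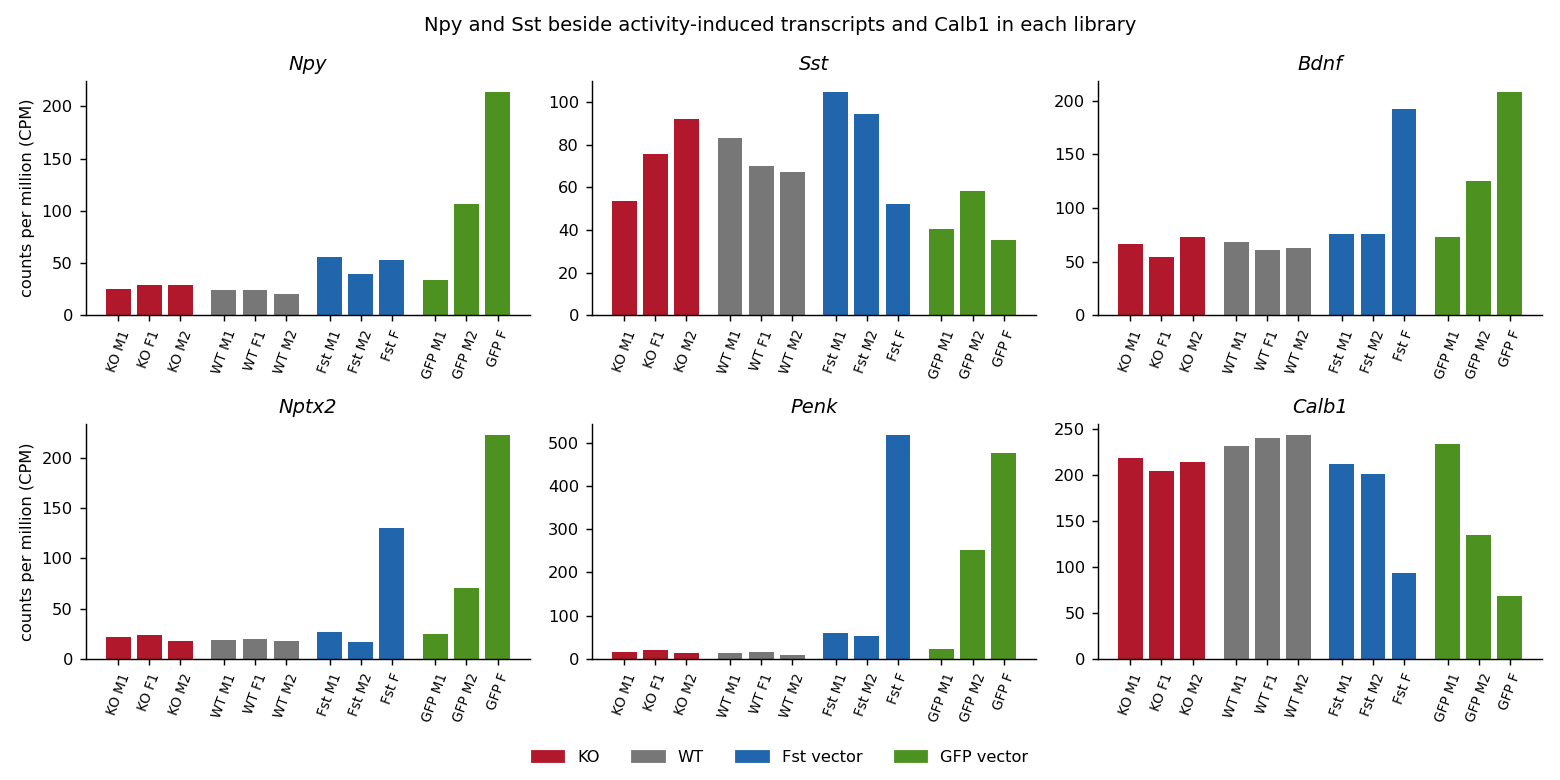
CPM of Npy and Sst, the activity-induced genes Bdnf, Nptx2 and Penk, and the granule cell marker Calb1, as bars from 0 for each of the 12 libraries, in the order KO, WT, Fst vector and GFP vector. GFP F is highest for Npy at 213.6 CPM and for Bdnf at 207.9 CPM.

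The remaining markers overlapped between the vector groups. Gad1 averaged 291.1 ± 15.5 CPM with the Fst vector and 261.7 ± 20.4 CPM with the GFP vector (SD, n = 3 each), a log2 change of 0.12 ± 0.12. Gad2 had 52.6, 82.8 and 83.8 CPM in Fst vector M1, M2 and F, against 43.3, 81.2 and 94.7 CPM in the GFP vector libraries, so M1 was lowest in both groups. Lhx6 averaged 11.6 ± 1.57 CPM with the Fst vector and 9.46 ± 1.93 CPM with the GFP vector. Pvalb had 18.3, 11.2 and 8.86 CPM in Fst vector M1, M2 and F, against 8.91, 8.96 and 7.25 CPM in the GFP vector libraries. Fst M1 was alone at the top for Pvalb, and Fst F lay inside the GFP vector range. Vip averaged 2.50 ± 0.383 CPM with the Fst vector and 2.85 ± 1.24 CPM with the GFP vector, and Dlx2 averaged 3.05 ± 1.24 CPM with the Fst vector and 2.11 ± 0.651 CPM with the GFP vector.

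Summed markers of 3 of the 17 lists lay apart in the vector comparison, and none of their genes was called by edgeR. Oligodendrocyte markers summed to 1348 to 1610 CPM with the Fst vector against 1011 to 1167 CPM with the GFP vector, with 5 of 5 genes positive. Markers of CA1 pyramidal cells summed to 54.7 to 63.7 CPM with the Fst vector against 68.9 to 77.7 CPM with the GFP vector, with 2 of 4 positive. Fibcd1 was the only gene of that list whose groups lay apart, at 7.37, 2.94 and 2.77 CPM against 32.8, 11.5 and 16.6 CPM. Thalamus and habenula markers summed to 36.5 to 64.8 CPM with the Fst vector against 31.4 to 35.8 CPM with the GFP vector, with 4 of 4 positive and Gbx2 at 0 in all Fst vector libraries. Nwd2 was the only gene of that list whose groups lay apart, at 28.3, 36.8 and 19.6 CPM against 18.7, 13.6 and 10.1 CPM. The part of these lists in the values of Sst, Dlx1 and Slc32a1 was not tested.

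The change in the vector comparison was set against that between KO and WT in 1 fit of all 12 libraries, where 0.281% of 15632 genes were called and none of the 10 was. Dlx1 had the smallest p, with a difference of log2 changes of 0.94 ± 0.27 (edgeR adjusted p = 0.191). For Lhx6 the difference was 0.65 ± 0.26, for Slc32a1 0.48 ± 0.20, for Sst 0.84 ± 0.40 and for Npy -1.58 ± 0.75. These errors pool groups of unequal spread. For Npy the SD over the mean was 8.73% in KO and 10.3% in WT, against 17.7% with the Fst vector and 76.9% with the GFP vector. For Gad2 it was 8.74, 6.95, 24.2 and 36.5%, in the same group order.

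Other genes of GABAergic cells were described from a list of 45 genes. Between KO and WT 38 were tested, 17 with a positive and 21 with a negative change, and the median was -0.03. No gene was called with edgeR or DESeq2, and at an unadjusted p under 0.05 there were 4 higher and 4 lower, where 5.96% of all genes passed. Reln, which encodes the secreted protein reelin, had 56.4, 56.0 and 62.6 CPM in KO against 82.3, 70.3 and 75.8 CPM in WT. All KO libraries were below all WT libraries, and the log2 change was -0.37 ± 0.08 (edgeR adjusted p = 0.0773, and 0.00281 to 1 over its alternatives). Ndnf, a secreted factor of neurogliaform cells, had a log2 change of -0.34 ± 0.11. Reln and Ndnf are also on the Cajal-Retzius list.

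In the vector comparison 40 of the 45 were tested, and 30 had a positive change, or 75% against 51% of all genes. The median was 0.27, no gene was called with edgeR or DESeq2, and 4 were higher and 0 lower at an unadjusted p under 0.05, where 9.51% of all genes passed. Rpp25 had 9.03, 9.32 and 6.42 CPM in Fst vector M1, M2 and F, against 4.58, 5.36 and 2.29 CPM in the GFP vector libraries. These groups did not overlap, and the log2 change was 0.99 ± 0.33 (edgeR adjusted p = 0.395). Tac1, a tachykinin precursor, had a log2 change of 0.89 ± 0.32. With the replicate block, a pairing inferred from these data, 2 genes were called, which are named here after their values were seen. They were Cort at 1.46 ± 0.22 (edgeR adjusted p = 0.0335) and Lamp5 at 0.97 ± 0.16 (edgeR adjusted p = 0.0475). Without the block the edgeR adjusted p was 0.568 for Cort and 0.541 for Lamp5. Lamp5 is also on the neocortex list, where 5 of 5 tested genes were positive but the summed levels overlapped. Cort, a peptide gene related to Sst, had 16.1, 13.5 and 4.43 CPM in the Fst vector libraries, against 6.68, 4.48 and 1.34 CPM in the GFP vector libraries.

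**Figure D5:**
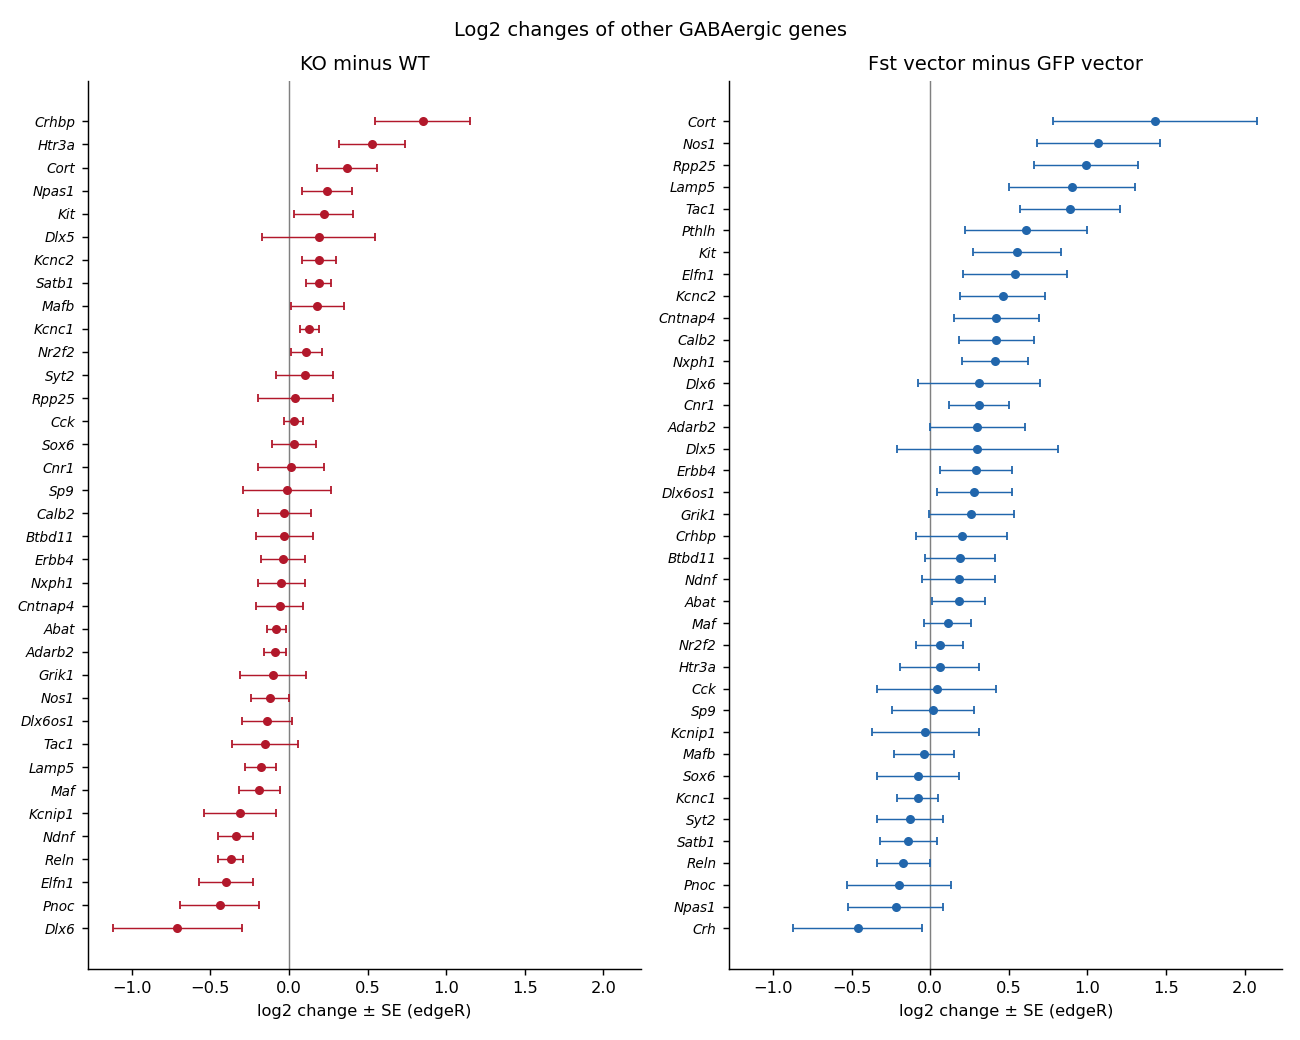
Log2 change ± SE from edgeR of other GABAergic genes past the count filter, KO minus WT on the left (36 genes shown) and Fst vector minus GFP vector on the right (38 genes shown). In the vector comparison 28 of the 38 estimates shown are above 0.

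The genes most like each marker over the 12 libraries were found from log2(CPM + 0.5) after the group means were taken out, among 11636 genes. They are the highest of many, the libraries share depth and composition, and no p is given. Reln was nearest to Gad1 (Pearson r = 0.95, Spearman rho = 0.95) and Sox6, a transcription factor of interneurons, to Gad2 (r = 0.97, rho = 0.96). Lpgat1 and Epb41l4b also reached r = 0.97 with Gad2. Pax6 was nearest to Slc32a1 (r = 0.93, rho = 0.86), Mgrn1 to Dlx1 (r = 0.94, rho = 0.86) and Gm4631 to Dlx2 (r = 0.93, rho = 0.85). For Vip it was mt-Nd1 (r = 0.94, rho = 0.83) and for Pvalb Ndufa5 (r = 0.94, rho = 0.83). B3galt1 was nearest to Lhx6 (r = 0.99, rho = 0.98) and Trim62 to Sst (r = 0.92, rho = 0.88). Sparc was nearest to Npy (r = 0.99, rho = 0.87), and that r draws on the wide range of Npy in the GFP vector group.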

How the data were processed

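Transcripts of 12 dentate gyrus libraries were analysed. Per the file headers, the authors deposited raw counts by Ensembl gene ID, with the vector groups in a table of their own. The submitters' processing notes name GRCm38. Aligner, counter and strand handling: not given in the sources used here. With 52636 genes in either table, lines naming no gene (6 and 12) carried 0 counts and were left out. Symbols and coordinates came from GENCODE for GRCm38. Totals were 8081824 to 11331337 counts.

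Each comparison used its own 6 libraries with edgeR 4.0.16 (R 4.3.3): TMM, filterByExpr, the robust quasi-likelihood test and Benjamini-Hochberg adjustment over all genes at 0.05. The SE is the size of the log2 change divided by the square root of F. DESeq2 1.42.0 and the other alternatives are given in the closing section, and the fit was tested on simulated data. The genes and lists were chosen with earlier results of these data known. All 10 markers are named, with the 3 other GABAergic genes of smallest p per comparison, of which 1 in each comparison is not reported here.

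Same-named vector libraries deviated together (r = 0.325 for M1, 0.137 for M2 and 0.390 for F), so their names were taken to pair them. This comes from the data, as no label states it, and Fst M2 with GFP M1 also reached 0.120.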

Additional observations from a re-analysis of the deposited data

How the results depend on the processing

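Over 290 alternative fits of the interneuron markers, 274 kept the direction and the side of the threshold, 15 reversed and 1 passed it. The threshold was passed in the fit without GFP M2, GFP F and Fst F, added after seeing the data and leaving 1 GFP vector library. That library gives no spread of its own, so no call is taken from this fit. It gave log2 changes of 1.25 for Sst and 1.74 for Tac1, and reversed Npy to 0.46, Gad2 to 0.59 and Vip to 0.66. GFP M1, the GFP vector library kept, was the lowest vector library for Npy, Gad2 and Vip, and no cause was tested. Ribosomal RNA share as a term turned Sst between KO and WT to -0.0028, and the replicate block turned Gad2 in the vector comparison to 0.0022. Leaving out 1 library at a time gave log2 changes of -0.16 to 0.22 for Sst, -0.46 to 0.11 for Dlx2 and -0.16 to 0.26 for Pvalb between KO and WT, and of -0.30 to 0.19 for Gad2 and -0.50 to 0.10 for Vip in the vector comparison.

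Other GABAergic genes called between KO and WT numbered 1 (Reln) with library totals, with no filter on low counts, with the replicate block and with sex by title, and 0 to 1 when 1 library was left out (1 without KO M2 or WT F1). In the vector comparison they numbered 2 with the replicate block (Cort and Lamp5) and 1 with sex by title (Cort). KO and WT names did not pair the libraries (r = 0.0606 for M1, 0.130 for F1 and -0.0807 for M2), and KO M1 correlated better with WT M2, at 0.178. The block changed no call of an interneuron marker. Over all genes, edgeR called 4 between KO and WT, against 3 with DESeq2, 46 without the filter, 23 with the block, 30 with sex, 1 in the fit of all 12 libraries and 2 to 17 with 1 library left out. In the vector comparison it called 12, against 249 with DESeq2, 230 without the filter, 141 with the block and 132 with sex. It called 4 with ribosomal RNA share, 412 in the fit of all 12 libraries and 1 to 29 with 1 library left out. Vip and Dlx2 had few counts. The spread of Dlx2 between libraries (SD over the mean) exceeded its counting error in each group, at 30.9 to 49.4% against 18.3 to 24.5%. For Vip it did so in KO (30.5% against 20.1%) and the GFP vector group (43.5% against 18.8%), but not in WT or the Fst vector group.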
